A study of Mus musculus with 8 samples.

Results

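Hormone-sensing cells, the luminal cells of the mammary duct that carry oestrogen, progesterone and prolactin receptors, were compared between day 14.5 of gestation (G) and nulliparous mice (NP). The gestation side held the 61 cells of cluster C5 in the 2 G libraries (20 and 41 cells) and the nulliparous side the 2183 cells of cluster C4 in the 2 NP libraries (971 and 1212 cells), of 25010 cells that passed the study's filters in all 8 libraries of the series. C5 held every hormone-sensing cell of the G libraries, whereas the NP libraries held further ones in other clusters, chiefly 265 and 169 cells in C2. Clusters were those deposited by the authors, and unique molecular identifiers (UMIs, 1 per captured transcript) were summed over the cells of each library, so that every test compared 2 mice with 2 mice.

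The mice were C57BL/6N females, the NP animals 8 weeks old and, per the study's methods, in oestrus, so that oestrus and the nulliparous state cannot be told apart here. Each mouse gave 1 library, live single EpCAM+ cells without CD31, CD45 or Ter119 were sorted, and droplet libraries that read the 3' end of transcripts were made. The C4 sums held 12667669 and 14508146 UMIs and the C5 sums 123242 and 258370. A single UMI was therefore worth 8.11 CPM (UMIs scaled to a sum of 1000000) in C5 of the first G library and 3.87 CPM in the second, and an absence of UMIs in both C5 sums allowed a level of up to 7.86 CPM, counting error only. Basal cells of the same libraries (C12 in NP, 504 and 282 cells, and C13 in G, 525 and 594 cells) gave the change between stages in the other lineage of the epithelium.

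In the adult gland, hormone-sensing cells receive the systemic hormones and pass the message on to their neighbours through secreted and membrane-bound factors. Amphiregulin relays oestrogen during ductal growth, while RANK ligand and Wnt4 relay progesterone during alveolar development. During gestation the secretory alveolar cells expand and begin to make milk proteins, and hormone-sensing cells become a small minority of the luminal layer.

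They made up 58.7% and 69.7% of the epithelial cells in the NP libraries, and 0.780% (exact 95% interval 0.477 to 1.20) and 1.58% (1.14 to 2.14) in the G libraries. The stages did not overlap, and 0.333 is the smallest p that an exact two-sided permutation test of 2 against 2 mice can give. All 9 hormone-sensing markers had UMIs in cluster C5. Their summed level was 3375 and 5349 CPM in C5 against 766 and 802 CPM in C13. It was 177 and 214 CPM in the largest luminal cluster of the G libraries, C8. The summed level in C5 was below the 15329.8 and 13911 CPM of C4. S100a6, a marker in that sum, was lower in C5 than in C13, at 438 and 383 against 720 and 740 CPM. It was above the 73.4 and 102 CPM of C8. The other markers were above C8 and C13 in both G libraries. For Ly6a the margin in the first was narrow, at 16.2 against 14.8 CPM in C8. Summed basal markers stood at 203 and 209 CPM in C5 and at 217 and 108 CPM in C4, with Trp63 at 0 in C5. Summed luminal progenitor markers stood at 32.5 and 50.3 CPM, with Tspan8 at 0. The median C5 cell held 6223.5 and 5514 UMIs in the G libraries, against 10163 and 10309 in C4, and no barcode of a passing NP or G cell occurred in another library.

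Of 10974 genes tested, 882 (8.04%) were higher and 1166 (10.6%) lower in G at an adjusted p under 0.05 (edgeR's quasi-likelihood test, Benjamini-Hochberg adjustment). The median log2 change of all genes tested was -0.20, or -0.06 with the genes that had no UMI in C5 set at their bound. Scaling by library size alone moved the genes upward by a median of 0.24 on the log2 scale and turned the split to 1228 higher and 757 lower, and with DESeq2 866 were higher and 744 lower. The depth of C5 bore on the falls in particular: 153 of the 1166 lower genes had no UMI in either C5 sum, and 4 of the 882 higher genes had none in C4. At a change of 1 on the log2 scale simulated falls were recovered in 54.0% of cases and simulated rises in 62.0%. Each share rests on 50 changed genes, all drawn from genes of at least 50 CPM in C4. Genes at lower levels were not simulated as changed, so the shares do not describe them. The clusters were drawn from these same cells' transcripts, and with every hormone-sensing cluster of each library summed in place of C4 and C5 1859 genes passed, among them 85.6% of the 2048 calls.

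**Figure D1:**
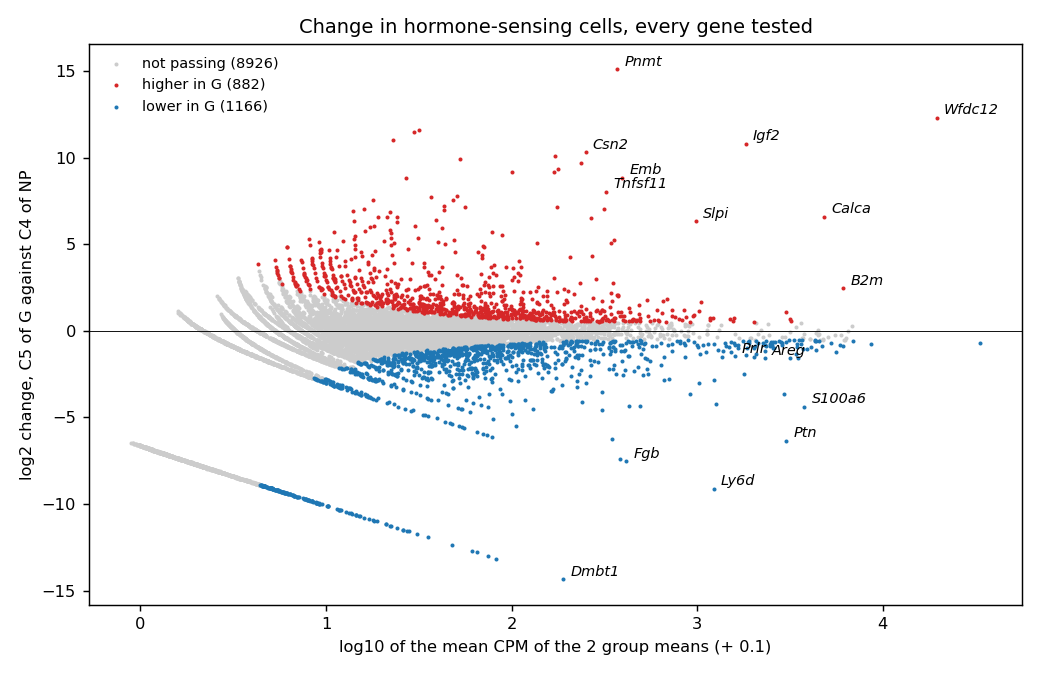
Each point is 1 of the 10974 genes tested, placed by the log10 of its mean CPM over both stages (x axis) and by its log2 change in C5 of G against C4 of NP (y axis); red genes were higher (882), blue genes lower (1166) and grey genes did not pass. Pnmt, Wfdc12, Igf2 and Calca lie at the top right, S100a6, Ptn and Ly6d at the bottom right, and the lowest curved band is genes with no UMI in C5, whose fitted change is no bound.

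Among the signals these cells send, some rose by orders of magnitude and others fell. Of 26 paracrine genes tested out of 36 on the list, 6 rose (23.1%, against 8.04% of all genes) and 8 fell (30.8%, against 10.6%), with a median log2 change of 0.02, and without the second G library 5 fell. The count of rises is a description, since 5 of the 26 entered the test only with the help of C5, and 4 of the other 21 rose. The risers included RANK ligand, calcitonin, Igf2, Tph1 and Wnt4. Among the fallers were amphiregulin, Wnt5a, Wnt7b, Stc2 and betacellulin.

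RANK ligand (Tnfsf11), the progesterone-induced factor that drives proliferation of neighbouring cells, was at 2.61 and 1.65 CPM in C4 and at 617 and 677 CPM in C5, a log2 change of 8.02 ± 0.24 (SE; adjusted p = 2.93e-241). Both gestation libraries lay far above both nulliparous ones, and C8 and C13 of the same G libraries held at most 3.32 CPM. C10, the putative alveolar progenitors of these libraries, held 6.89 and 21.2 CPM. In single cells thinned to 2000 UMIs, 59.6% and 63.8% of C5 cells were expected to carry a UMI of Tnfsf11, against 0.530% and 0.298% of C4 cells and at most 0.335% of C8 cells. Without thinning the shares were 85.0% and 85.4% in C5, 2.47% and 1.32% in C4. Its receptor RANK (Tnfrsf11a) had no UMI in C5 and stood at 34.6 and 36.1 CPM in C13, the basal cells, with 16.6 and 13.7 CPM in C8. The decoy receptor osteoprotegerin (Tnfrsf11b) rose from 0.947 and 0.0689 to 32.5 and 15.5 CPM. It had 4 UMIs in each C5 sum, and C13 held 31.6 and 33.2 CPM.

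Calca, the gene of calcitonin, was at 131 and 43.4 CPM in C4 and at 10078 and 9196 CPM in C5 (log2 change 6.57 ± 0.26). The gestation cells were alike in both mice, and every one of the 20 and 41 C5 cells held a UMI, against 28.0% and 15.1% of C4 cells. After thinning the shares were 97.9% and 99.6% in C5, 12.2% and 4.87% in C4 and 0.920% and 1.63% in C8. Igf2, a growth factor that acts downstream of prolactin in the gland, rose from 0.237 and 3.03 to 2726 and 4575 CPM (10.81 ± 0.30), with 6.80 and 12.3 CPM in C8. In C10 Calca stood at 29.8 and 138 CPM and Igf2 at 24.5 and 106 CPM. The imprinted RNA H19, the chromosomal neighbour of Igf2, rose from 6.79 and 3.58 to 454 and 612 CPM (6.50 ± 0.22). Tph1, the enzyme that starts serotonin synthesis, rose from 65.4 and 36.0 to 373 and 290 CPM (2.44 ± 0.21).

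Wnt4, the other classical progesterone relay, changed least among the named risers. It stood at 114 and 133 CPM in C4 and at 292 and 259 CPM in C5 (log2 change 0.89 ± 0.21, adjusted p = 0.000317), and without the second G library the change was 0.96 and did not pass. The share of thinned cells with a Wnt4 UMI was 39.3% and 37.1% in C5 against 19% and 22.4% in C4, and no more than 3.08% in C8 and C13.

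Amphiregulin (Areg), the oestrogen relay, fell from 3216 and 3479 to 820 and 1742 CPM (log2 change -1.58 ± 0.21). The stages did not overlap, and the gestation mice differed more from each other than the nulliparous mice did. Areg UMIs were still expected in 76.8% and 84.8% of thinned C5 cells, against 90.8% and 92.0% of C4 cells and at most 4.93% of C8 and C13 cells. Betacellulin (Btc), a further ligand of the EGF receptor family, fell from 66.2 and 60.4 to 0 and 15.5 CPM (-2.84 ± 0.53).

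The non-canonical ligand Wnt5a fell from 105 and 103 to 8.11 and 15.5 CPM (-3.23 ± 0.46). Wnt7b stood at 84.5 and 108 CPM in C4 and had 2 UMIs in C5, a ratio 18.5-fold lower with a counting interval of 5.12 to 153. The secreted glycoprotein stanniocalcin 2 (Stc2) stood at 137 and 141 CPM in C4 and had 1 UMI in C5 (53.1-fold lower, interval 9.52 to 2098). In the EGF family the receptor Erbb4, which binds betacellulin and neuregulins, rose from 0.553 and 0.0689 to 48.7 and 96.8 CPM (7.74 ± 0.62).

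**Figure D2:**
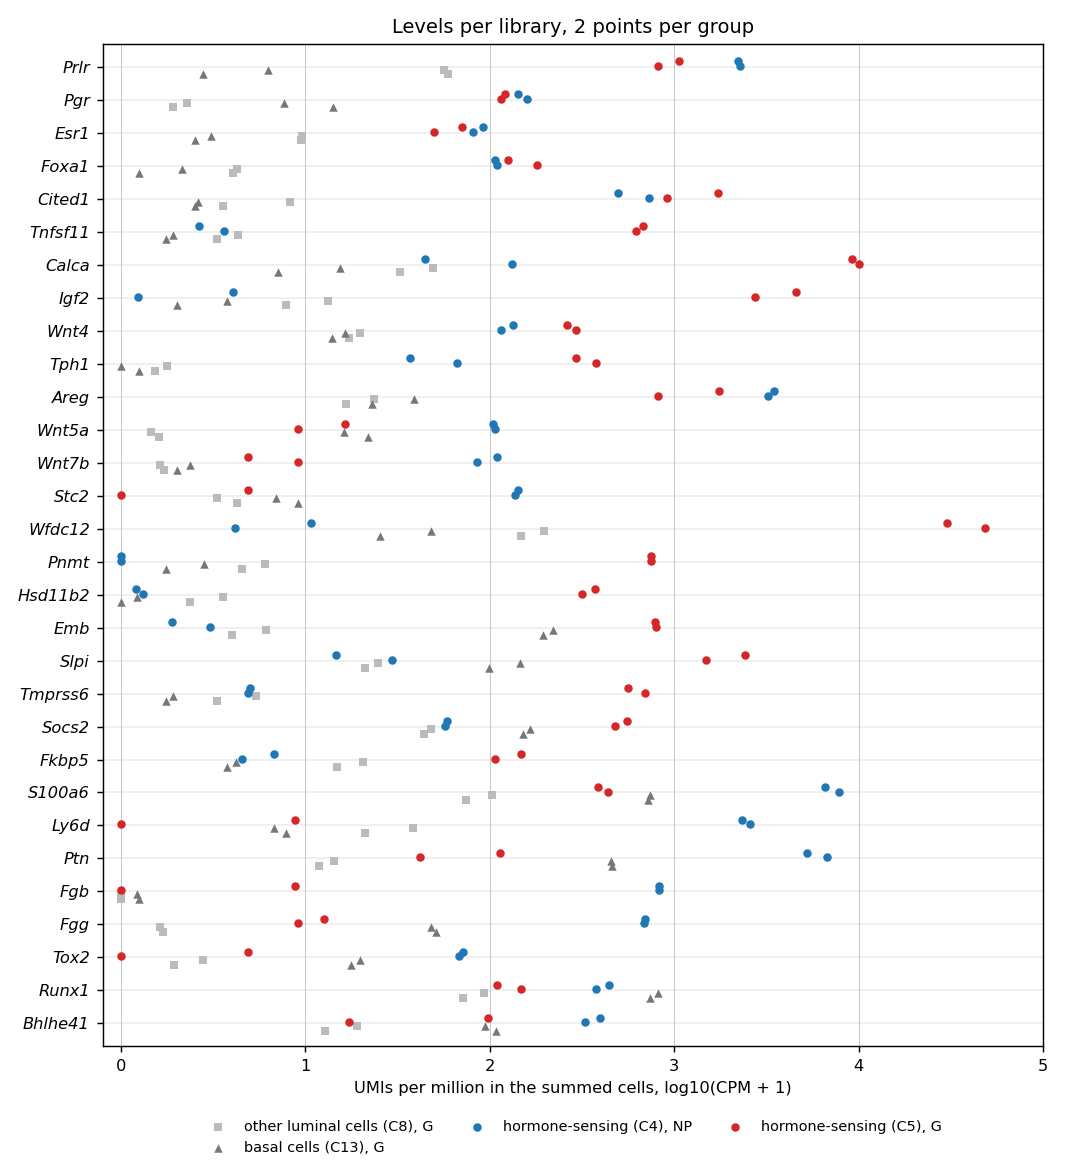
Levels of 30 genes in each library as log10(CPM + 1) on the x axis, with hormone-sensing cells of NP (blue circles) and G (red circles), and C8 (squares) and C13 (triangles) of G; every group has 2 points, 1 per mouse. Tnfsf11, Calca, Igf2, Wfdc12 and Pnmt are far to the right in gestation hormone-sensing cells and low in the other 3 groups. Pgr and Esr1 lie slightly lower and Foxa1 slightly higher in gestation.

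The upstream sequences of 3 signals and secreted products that rose, chosen after their values were seen, are shown with that of the milk protein gene Csn2, which also rose in C5 but was far more abundant in C8. They are the 250 bases before the annotated start in RefSeq on GRCm38.p6, 5′ to 3′ on the gene's strand, all from the minus strand, and lie at chr14:78308044-78308293 for Tnfsf11, chr7:114636358-114636607 for Calca, chr2:164190559-164190808 for Wfdc12 and chr5:87699426-87699675 for Csn2. Capitals mark a match of the STAT motif GAS.
Tnfsf11: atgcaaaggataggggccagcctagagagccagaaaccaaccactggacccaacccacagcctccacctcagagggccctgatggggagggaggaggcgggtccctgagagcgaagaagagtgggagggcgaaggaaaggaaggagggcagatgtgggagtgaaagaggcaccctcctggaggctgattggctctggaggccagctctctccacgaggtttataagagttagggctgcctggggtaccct
Calca: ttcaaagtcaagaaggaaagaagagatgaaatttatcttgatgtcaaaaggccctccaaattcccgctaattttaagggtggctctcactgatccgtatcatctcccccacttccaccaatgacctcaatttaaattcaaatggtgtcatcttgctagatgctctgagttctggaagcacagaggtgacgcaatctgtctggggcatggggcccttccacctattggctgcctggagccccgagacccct
Wfdc12: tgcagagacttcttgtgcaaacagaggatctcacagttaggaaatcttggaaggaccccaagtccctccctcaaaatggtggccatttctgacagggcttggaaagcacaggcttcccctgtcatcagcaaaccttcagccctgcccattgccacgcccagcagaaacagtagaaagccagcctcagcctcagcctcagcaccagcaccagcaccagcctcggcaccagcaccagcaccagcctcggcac
Csn2: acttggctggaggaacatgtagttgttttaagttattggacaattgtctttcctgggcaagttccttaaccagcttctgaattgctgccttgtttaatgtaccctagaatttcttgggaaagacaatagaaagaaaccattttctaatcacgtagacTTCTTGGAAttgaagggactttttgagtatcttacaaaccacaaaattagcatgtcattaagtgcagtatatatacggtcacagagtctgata

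On both strands the windows were searched for the STAT motif GAS (TTCNNNGAA, held by 7.02% of 32851 promoters of this length), the glucocorticoid and progesterone receptor motif GNACANNNTGTNC (0.387%), its shorter form TGTTCT (16.1%, which overlaps the longer one where both occur) and the oestrogen receptor motif GGTCANNNTGACC (0.0639%). The Csn2 window held 1 GAS match, TTCTTGGAA, at 93 to 85 bases before the start. None of the 4 motifs was found in the windows of Tnfsf11, Calca and Wfdc12, which says only that these letters are not in these 250 bases. Of the other genes looked up, Csn1s1 held 1 GAS match, Csn1s2a, Emb and 1 of the 4 windows of Igf2 held 1 match each of TGTTCT, and Peg3, Fkbp5 and Slpi held none of the 4 motifs.

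Transcripts of the hormone receptors that define the lineage were still detected in gestation, and most receptor genes did not pass the test. Of 12 receptor genes tested, 0 were higher with edgeR, 0 with DESeq2, 1 with library size alone and 1 at an unadjusted p under 0.05. At that unadjusted level 6 were lower, and the median log2 change of the 12 was -0.64, against -0.20 for all genes. The 3 that fell (25%, against 10.6% of all genes) were the prolactin receptor, the retinoic acid receptor Rarg and the thyroid hormone receptor Thra, and without the second G library 1 fell. Rarg had 2 UMIs in C5 (7.92-fold lower than in C4, interval 2.19 to 65.5) and Thra fell by 1.40 on the log2 scale, and neither passed without that library, at -2.63 and -1.68. The prolactin receptor (Prlr) was at 2277 and 2225 CPM in C4 and at 811 and 1060.5 CPM in C5 (log2 change -1.49 ± 0.20, adjusted p = 1.3e-11), a fall without overlap that left it above the 57.9 and 55.6 CPM of C8 and the 1.77 and 5.26 CPM of C13. It was still expected in 72.1% and 87.9% of thinned C5 cells, against 96.2% and 96.1% of C4 cells.

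The progesterone receptor (Pgr) was at 159 and 141 CPM in C4 and at 114 and 120 CPM in C5, a log2 change of -0.59 ± 0.25 that did not pass (adjusted p = 0.0886). The oestrogen receptor (Esr1) was at 80.3 and 91.0 CPM in C4 and at 48.7 and 69.7 CPM in C5 (-0.70 ± 0.31, adjusted p = 0.104). Both were lower in each gestation mouse than in either nulliparous mouse, as were 3516 of the 10974 genes tested. Pgr was expected in 21.2% and 21.4% of thinned C5 cells against 25.3% and 22.8% of C4 cells, and Esr1 in 8.63% and 11.3% against 14.1% and 16.5%. C8 gave at most 0.237% for Pgr and 1.60% for Esr1. Foxa1, the pioneer factor that opens chromatin for these receptors, was at 109 and 106 CPM in C4 and 179 and 124 CPM in C5 (adjusted p = 0.695).

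**Figure D3:**
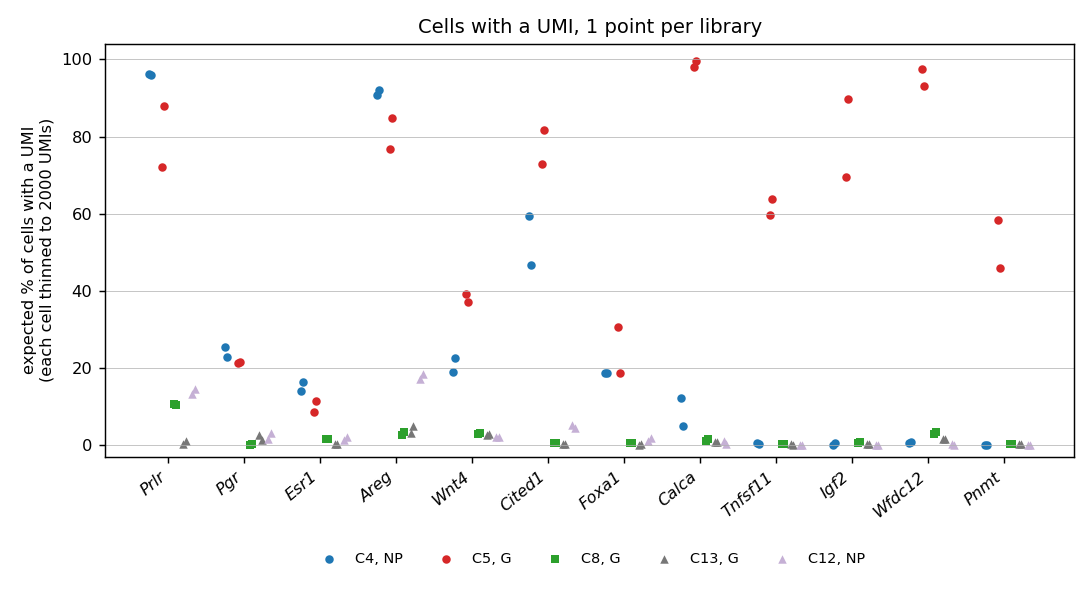
Expected percentage of cells with at least 1 UMI of each gene (y axis) after thinning every cell to 2000 UMIs, 1 point per library, in C4 of NP (blue), C5 of G (red), C8 of G (green squares), C13 of G (grey triangles) and C12 of NP (light triangles). Prlr, Pgr, Esr1 and Areg are lower in C5 than in C4 in every library, and Calca, Tnfsf11, Igf2, Wfdc12 and Pnmt are near 0 in all but C5, Calca in C4 excepted.

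In the prolactin and JAK-STAT5 list, 4 of 19 genes rose (21.1%, against 8.04% of all genes) and 5 fell (26.3%, against 10.6%). Of the 19, 1 entered the test only with the help of C5, and 3 of the other 18 rose. The risers included STAT5-induced feedback inhibitors. Socs2 rose from 56.1 and 57.2 to 479 and 553 CPM (log2 change 2.96 ± 0.19), about equal within each stage and above the 42.9 and 46.7 CPM of C8. Cish rose from 9.55 and 9.79 to 16.2 and 50.3 CPM (1.76 ± 0.50), and it did not pass without the second G library, at 0.47, or without the first or second NP library, at 1.64 and 1.78. Socs3, a feedback inhibitor induced through STAT3, fell from 390 and 373 to 89.3 and 46.4 CPM (-2.89 ± 0.28), and the survival gene Bcl2l1 fell from 104 and 105 to 16.2 and 31.0 CPM (-2.24 ± 0.38). The transducers themselves did not pass: Jak2 had an adjusted p of 0.438, Stat5a 0.805 and Stat5b 0.917.

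Of 20 tested oestrogen and progesterone target genes, 9 rose (45.0%, against 8.04% of all genes) and 3 fell (15%, near the 10.6% of all genes), with a median of 0.09. Several of the risers are also targets of the glucocorticoid receptor, which shares its binding motif with the progesterone receptor. The co-chaperone Fkbp5 rose from 3.55 and 5.79 to 105 and 147 CPM (4.56 ± 0.36). Tsc22d3, the leucine zipper protein GILZ, rose from 14.8 and 12.8 to 146 and 155 CPM (3.22 ± 0.29). Both gestation mice stood well above both nulliparous mice for these genes.

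The zinc finger factor Zbtb16 rose from 12.2 and 17.3 to 64.9 and 65.8 CPM (1.89 ± 0.39) and the clock gene Per1 from 12.2 and 11.6 to 40.6 and 46.4 CPM (1.66 ± 0.46), and without the second G library neither passed, at 1.85 and 1.5, nor did Per1 without the first or second NP library, at 1.65 and 1.69. The glucocorticoid receptor gene Nr3c1 was at 13.3 and 12.4 CPM in C4 and at 0 and 31.0 CPM in C5. Igfbp5, which binds insulin-like growth factors, rose from 22.1 and 9.93 to 714 and 681 CPM (5.22 ± 0.20), below the 2862 and 2895 CPM of C13. The coactivator-binding protein Cited1 rose from 729 and 497 to 909 and 1734 CPM (0.92 ± 0.18), and it did not pass with DESeq2 or, at 0.30, without the second G library.

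The 10 genes that rose most under the naming rule were Pnmt, Wfdc12, Igf2, Csn2, Hsd11b2, Sftpd, Csn1s2a, Peg3, Nrep and Csn1s1, with adjusted p between 3.16e-310 and 5.7e-47. In that test the spread was shared fully across genes, so such values rest on that shared spread and not on 2 mice a gene. Wfdc12, a small secreted protease inhibitor of the whey acidic protein family, was at 3.16 and 9.72 CPM in C4 and at 48555 and 29957 CPM in C5 (log2 change 12.28 ± 0.38). By UMIs it ranked 1 of the 10974 genes in C5 of both mice, while C8 held 147 and 196 CPM and C13 24.3 and 46.7 CPM. C10 held 264 and 926 CPM of Wfdc12. Every C5 cell of the first G library and 95.1% of the second held a UMI of it.

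Pnmt, the enzyme that turns noradrenaline into adrenaline, had no UMI in C4 and stood at 746 and 743 CPM in C5, at least 6742-fold higher by the floor of 3 UMIs over both C4 sums. It was at most 5.01 CPM in C8 and 1.83 CPM in C13, and 80.0% and 61.0% of C5 cells held a UMI. Hsd11b2, which inactivates cortisol and corticosterone, rose from 0.316 and 0.207 to 316 and 372 CPM (10.06 ± 0.36), with 1.36 and 2.60 CPM in C8. The lung collectin Sftpd, a secreted defence protein, had 2 UMIs in C4 and stood at 114 and 96.8 CPM in C5, a ratio of 1389 with a counting interval of 359.5 to 11871.

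The imprinted zinc finger gene Peg3 rose from 0.395 and 0.482 to 333 and 375 CPM (9.36 ± 0.33), with 29.4 and 32.1 CPM in C8. Nrep, a small protein of regenerating neurons, rose from 0.316 and 0.207 to 243 and 159 CPM (9.19 ± 0.47), and C13 held 93.5 and 91.7 CPM. Below the first 10, the membrane glycoprotein embigin (Emb) rose from 2.05 and 0.896 to 795 and 782 CPM (8.83 ± 0.25), the serine protease Tmprss6 from 3.87 and 4.0 to 690 and 557 CPM (7.03 ± 0.22), and the adhesion protein gene Hepacam2 from 2.61 and 1.65 to 333 and 364 CPM (7.13 ± 0.27). These 3 were chosen after their values were seen.

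The leucoprotease inhibitor Slpi rose from 28.7 and 13.6 to 1493 and 2411 CPM (6.33 ± 0.22), and the mucin Muc1 from 6.95 and 4.76 to 73.0 and 58.1 CPM (3.20 ± 0.46). Across the 882 higher genes, 526 (59.6%) were also above C8, C10 and C13 in both G libraries and 277 (31.4%) by more than 2 times, against 21.3% and 5.83% of all genes tested. Another 216 of the 882 (24.5%) lay below the highest of those clusters in both libraries. These shares are a description, since the 882 were chosen for high values in the same C5 sums.

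Many of the transcripts that marked the nulliparous cells fell. Of 23 tested surface and secreted markers of the lineage 14 fell (60.9%, against 10.6% of all genes) and 2 rose, with a median of -1.32 against -0.20 for all genes. The list was drawn up with earlier results of these samples known and is no independent evidence of the direction, and without the second G library 9 fell. The heparin-binding growth factor pleiotrophin (Ptn) fell from 6684 and 5269 to 40.6 and 112 CPM (log2 change -6.34 ± 0.30). The calcium-binding protein S100a6 fell from 7769 and 6578 to 438 and 383 CPM (-4.39 ± 0.25). The GPI-anchored protein Ly6d stood at 2579 and 2333 CPM in C4 and had 2 UMIs in C5 (467-fold lower, counting interval 129 to 3857).

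Ly6a, the stem cell antigen Sca-1, fell from 909 and 724 to 16.2 and 61.9 CPM (-4.37 ± 0.30). The stress-response gene Nupr1 fell from 5934 and 4899 to 495 and 507 CPM (-3.67 ± 0.24), and the secreted protease inhibitor Wfdc2 from 1928 and 1629 to 292 and 240 CPM (-3.01 ± 0.23). Not all of the set fell, since Fxyd2, a regulator of the sodium pump, went from 638 and 494 to 1347 and 991 CPM (0.78 ± 0.19), a rise that did not pass without the first G library at 0.55. Prominin 1 (Prom1) was at 83.0 and 70.0 CPM in C4 and at 40.6 and 54.2 CPM in C5 (adjusted p = 0.0535).

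The largest falls under the naming rule had no UMI in C5, so each has only a lower bound, from 3 UMIs over both C5 sums. Dmbt1, a mucosal scavenger protein, stood at 401 and 356 CPM in C4 and was at least 48.0-fold lower. The spermine-binding protein Sbp was at 162 and 168 CPM (at least 21.0-fold lower) and the synaptic adhesion gene Nrxn3 at 144 and 155 CPM (at least 19.1-fold). Ido1, which breaks down tryptophan, was at 164 and 94.6 CPM (at least 16.2-fold). For Sprr1a, Acsbg1, Cyp3a57, Pfkfb3 and Ahnak2 the bounds were 12.2, 8.96, 7.81, 7.08 and 6.58.

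Ductal keratins fell less. Krt8 went from 5390 and 3901 to 2093 and 2284 CPM (-1.32 ± 0.21), Krt18 by -1.21 ± 0.21 and Krt19 by -1.55 ± 0.21, while the epithelial adhesion molecule Epcam, the sort marker, was at 2860 and 2117 CPM in C4 and 2085 and 2748 CPM in C5 (adjusted p = 0.373). Krt18 did not pass without the second G library, at -1.22. Of 21 junction and adhesion genes 10 fell (47.6%, against 10.6% of all genes) and 1 rose, with a median of -0.81, or -0.68 with genes lacking a UMI at their bound. Without the second G library 5 fell. The tight junction protein Cldn4 fell from 2278 and 1931 to 365 and 341 CPM (-2.83 ± 0.23), and its relative Cldn8 rose from 15.6 and 16.5 to 227 and 174 CPM (3.35 ± 0.27).

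Among 27 tested transcription factors of the lineage 6 rose (22.2%, against 8.04% of all genes) and 7 fell (25.9%, against 10.6%), with a median of -0.06, and without the second G library 2 rose. Of the 27, 1 entered the test only with the help of C5, and 5 of the other 26 rose. Tox2, an HMG-box factor, was at 66.9 and 70.6 CPM in C4 and had 1 UMI in C5 (26.3-fold lower, interval 4.71 to 1039). Runx1 fell from 374 and 440 to 146 and 108 CPM (-1.99 ± 0.24) and the clock repressor Bhlhe41 from 329 and 393 to 16.2 and 96.8 CPM (-2.63 ± 0.27). The Notch target Hes1 fell from 223 and 256 to 105 and 116 CPM (-1.34 ± 0.25), whereas Hes6, an inhibitor of Hes1, rose from 16.7 and 15.5 to 146 and 105 CPM (2.65 ± 0.31).

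The GATA-type repressor Trps1 rose from 118 and 129 to 649 and 604 CPM (2.08 ± 0.18), clear of both nulliparous mice. Gata3, the luminal master factor, was at 124 and 143 CPM in C4 and at 154 and 232 CPM in C5 (adjusted p = 0.275), and Msx2 at 72.0 and 62.4 CPM and at 73.0 and 77.4 CPM (adjusted p = 0.924). Outside this list, the progenitor factor Sox9 fell from 385 and 431 to 24.3 and 65.8 CPM (-3.22 ± 0.29). The progenitor surface gene Cd14 was at 36.5 and 24.2 CPM in C4 and at 24.3 and 31.0 CPM in C5 (adjusted p = 0.702). Kit had 1 UMI in C5, with 2.45 and 0.689 CPM in C4, and Aldh1a3 also had 1 UMI, with 39.4 and 15 CPM in C4 (10.1-fold lower, interval 1.80 to 398), a fall that did not pass with DESeq2 or without the first or the second G library, at -3.05 and -10.93. The vitamin D receptor Vdr was at 12.2 and 21.6 CPM in C4 and at 16.2 and 7.74 CPM in C5 (adjusted p = 0.367).

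Genes of the acute phase and of cytokine signalling fell in 10 of 16 cases (62.5%, against 10.6% of all genes) and rose in 1, with a median of -1.31, or -1.09 with genes lacking a UMI at their bound, and without the second G library 6 fell and 0 rose (edgeR). The fibrinogen chain Fgg fell from 683 and 691 to 8.11 and 11.6 CPM (-6.27 ± 0.40), and Fgb, at 824 and 823 CPM in C4, had 2 UMIs in C5 (157-fold lower, interval 43.5 to 1298). In the RANK and NF-kappaB list 2 of 9 genes rose (22.2%, against 8.04% of all genes) and 5 fell (55.6%, against 10.6%), with 3 falls without the first G library, 1 without the second, and 3 of 5 tested without either NP library. The count of rises is a description, since 1 of the 9 entered the test only with the help of C5, and 1 of the other 8 rose. Among the 5 that fell was Rela, which went from 106 and 85.5 to 40.6 and 11.6 CPM (-2.42 ± 0.41). Relb, also among them, went from 115 and 95.3 to 64.9 and 23.2 CPM (-1.74 ± 0.35). Without the second G library neither Rela nor Relb passed, at -1.51 and -0.97.

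Antigen presentation genes split. Beta-2-microglobulin (B2m), the light chain of class I molecules, rose from 1726 and 1563 to 10532 and 10721 CPM (2.45 ± 0.22), about equal in both gestation mice and above the 2154 and 2064 CPM of C8. The heavy chain genes went the other way, H2-Q4 from 281 and 221 to 24.3 and 54.2 CPM (-2.74 ± 0.31) and H2-K1 from 621 and 475 to 308 and 375 CPM (-0.89 ± 0.20, -0.80 and not passing without the first G library). Of 15 genes tested on the list 2 rose (13.3%, against 8.04% of all genes) and 6 fell (40%, against 10.6%), with 2 falls without the first G library and 3 without the second. The other riser, H2-Eb1, is a class II chain and went from 5.13 and 1.86 to 97.4 and 92.9 CPM (4.54 ± 0.43), while the class II invariant chain Cd74 had 3 UMIs in C5 (adjusted p = 0.982).

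The milk protein genes that were tested, 5 of the 8 listed, were all called higher (100%, against 8.04% of all genes). Of these, 3 stood near the level of the basal cells of the same libraries. Apart from Csn3, these genes were so low in C4 that they entered the test only with the help of C5, so the count is a description. Without the first G library 3 of 4 rose. Beta-casein (Csn2) was at 0.158 and 0.414 CPM in C4 and at 649 and 352 CPM in C5, against 635 and 354 CPM in C13 and 31078 and 20282 CPM in C8 of the same libraries. Csn1s2a stood at 609 and 337 CPM in C5 and 522 and 251 CPM in C13, and Csn1s1 at 446 and 232 CPM in C5 and 413 and 235 CPM in C13. Within each G library the level in C5 was close to that in C13, and both were higher in the first library, as in C8. Thinned cells with a Csn2 UMI made up 73.7% and 49.6% of C5 and 70.9% and 50.4% of C13.

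Csn3 was at 13.1 and 9.93 CPM in C4, 56.8 and 23.2 CPM in C5 and 110 and 71.1 CPM in C13, and its call (1.35 ± 0.51, adjusted p = 0.0449) turned into a fall of -1.22 with all hormone-sensing clusters summed. It did not pass without the first G library, at 0.76, or without the first or second NP library, at 1.59 and 1.28. Nor did Csn3 pass with the replicate block, at 1.39, or with no low-count filter, at 1.28. Glycam1 had 2 UMIs in C4 and was at 73.0 and 34.8 CPM in C5, with 90.7 and 28.6 CPM in C13. Wap and Lalba, the late milk proteins, had no UMI in C5. Whether the casein UMIs came from the C5 cells or from free RNA of the alveolar cells was not tested.

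Genes of milk fat synthesis rose in 14 of 24 cases (58.3%, against 8.04% of all genes) and fell in 1, with a median of 1.28, and several stood above C13. The count is a description, since 5 of the 24 entered the test only with the help of C5, and 10 of the other 19 rose. It became 8 without the first G or the first NP library, and 6 without the second G or the second NP library. Lipoprotein lipase (Lpl) went from 0.0789 and 0.827 to 56.8 and 38.7 CPM (6.26 ± 0.73), with 18.5 and 8.92 CPM in C13 and 261 and 180 CPM in C8. The desaturase Fads1 stood at 40.6 and 46.4 CPM in C5 (5.38 ± 0.68), with 14.9 and 13 CPM in C13 and 112 and 102 CPM in C8. Xanthine dehydrogenase (Xdh), which coats milk fat globules, stood at the same 40.6 and 46.4 CPM (4.39 ± 0.62), with 19.5 and 19.7 CPM in C13. The C5 levels of these 3 genes lay between the basal and the secretory cells in both libraries. They rest on few UMIs in the C5 sums, 7 and 10 for Lpl and 5 and 12 each for Fads1 and Xdh.

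**Figure D4:**
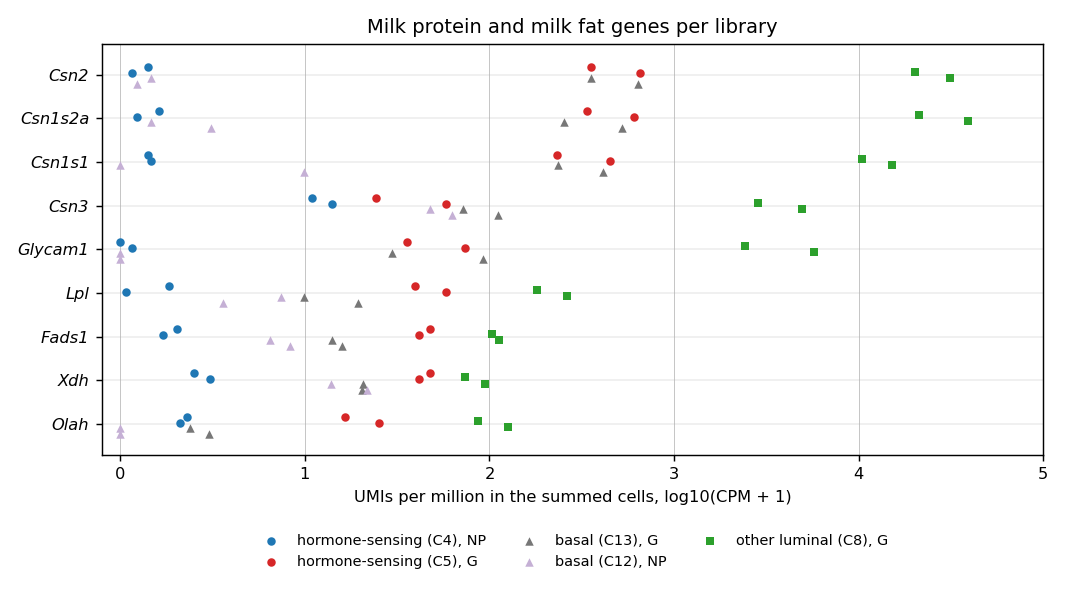
Levels of 5 milk protein and 4 milk fat genes per library as log10(CPM + 1) on the x axis, 2 points per group, in C4 of NP (blue), C5 of G (red), C12 of NP (light triangles), C13 of G (grey triangles) and C8 of G (green squares). The points of Csn2, Csn1s1 and Csn1s2a in C5 lie close to those of C13 and Csn3 lies below, whereas Lpl, Fads1, Xdh and Olah in C5 lie to the right of C13 and to the left of C8.

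Several transcripts that commonly mark other cells were present, and the rest of their marker sets were mostly not. Haemoglobin Hba-a1 was at 15.3 and 27.0 CPM in C4 and at 617 and 426 CPM in C5 (4.31 ± 0.20), with 1.59 and 1.73 CPM in C8, while Hba-a2, Hbb-bs and Hbb-bt had no UMI in C5 and Alas2 had 1. The endothelial glycoprotein Vwf was at 19.3 and 18.5 CPM in C4 and at 162 and 213 CPM in C5 (3.12 ± 0.26), with 0 of 5 endothelial markers detected there. Lysozyme Lyz2 was at 0.789 and 0.138 CPM in C4 and at 105 and 65.8 CPM in C5 (7.20 ± 0.60), with Ptprc at 0 and 2 of 5 immune markers detected. Summed fibroblast markers stood at 40.6 and 23.2 CPM in C5 and 10.0 and 21.8 CPM in C4, 1 of 4 pericyte markers was detected and 0 of 5 adipocyte markers.

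The calls of cell division genes rested largely on the second G library, and few C5 cells held UMIs of Top2a or Mki67. Summed, the listed genes stood at 34.3 and 65.2 CPM in C4 and at 81.1 and 875 CPM in C5. Top2a was at 1.03 and 3.52 CPM in C4 and at 0 and 155 CPM in C5, and Mki67 was at 0.632 and 2.0 CPM and at 16.2 and 73.5 CPM. Of 13 listed genes tested 12 rose, where 9 of the 13 entered the test only with the help of C5, and without the second G library 0 of 15 did, where Top2a turned to a fitted -7.42 and Mki67 did not pass at 3.30. The 12 rises were 92.3% of the genes tested, against 8.04% of all genes, and their count is a description. UMIs of Top2a were found in 0 of 20 cells (up to 16.8% by the exact interval) and in 3 of 41 cells (7.32%), against 48.0% and 43.3% of C8 cells. Mki67 UMIs were found in 2 of 20 (10.0%) and 5 of 41 cells (12.2%), against 54.9% and 47.5% of C8 cells.

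Ribosomal protein genes fell in 55 of 78 cases (70.5%, against 10.6% of all genes) and rose in 0 (0 with DESeq2 and 0 at an unadjusted p under 0.05), at a median of -0.65, but the count of falls was 30 without the TMM scaling, 10 without the first G library and 2 without the second. Nuclear genes of oxidative phosphorylation rose in 25 of 90 cases (27.8%, against 8.04% of all genes) and fell in 3, with a median of 0.34. Without TMM 45 rose and 1 fell, without the first G library 10 rose and 2 fell, and 8 rose and 0 fell without the second. Cox5a, a subunit of cytochrome oxidase, rose from 488 and 406 to 1728 and 1606 CPM (1.65 ± 0.19). Of 9 mitochondrially encoded genes tested 3 fell (33.3%, against 10.6% of all genes). Among them was mt-Nd1, from 2804 and 2919 to 1177 and 1173 CPM (-1.53 ± 0.21).

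Chaperones and translocation genes of the endoplasmic reticulum rose in 10 of 28 cases (35.7%, against 8.04% of all genes) and fell in 0 (0 with DESeq2 and 0 at an unadjusted p under 0.05), at a median of 0.44, and without the second G library 1 of 28 rose. Sec61b, a channel subunit, rose from 354 and 308 to 860 and 898 CPM (1.17 ± 0.18). Hexokinase 2 (Hk2), which traps glucose, fell from 166 and 207 to 0 and 19.4 CPM (-4.08 ± 0.42), and the detoxifying enzyme Gsta4 rose from 49.9 and 55.1 to 398 and 430 CPM (2.74 ± 0.20). Of 23 immediate early and stress genes 5 rose (21.7%, against 8.04% of all genes) and 8 fell (34.8%, against 10.6%), with Klf2 up from 35.2 and 26.6 to 349 and 271 CPM (3.04 ± 0.22) and the heat shock gene Hspb1 down from 726 and 568 to 227 and 116 CPM (-2.29 ± 0.24). Falls numbered 4 without the first G library and 5 without the second, and rises 2 without the second G library and 3 without the first NP library.

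Basal cells of the same libraries changed too, in 5177 of 11074 genes (46.7%), of which 2722 (24.6%) were higher and 2455 (22.2%) lower. Their sums were far deeper than those of C5, so these counts do not compare the size of the response. Their largest rises were again Csn2, Csn1s2a and Csn1s1, followed by Opcml and Spock3, and the next 5 included the cell cycle inhibitor Cdkn1c and Capn6. Opcml, Spock3 and Capn6 had no UMI in C5. Opcml, a cell adhesion molecule, went from 1.18 and 1.37 CPM in C12 to 59.4 and 60.6 CPM in C13 (5.65 ± 0.28). Their largest falls were in genes abundant in C4, such as Fam25c, Nupr1, Prlr and Ly6d. Among Prlr, Cited1, Fxyd2, Areg, Fgb, Wfdc2, Nupr1, Gpx3 and Krt19, C12 held 6.06% (Fgb) to 12.1% (Krt19) of the C4 level. Other luminal transcripts lay outside this range, such as Krt18 at 20.5% and Krt8 at 32.1%. In C12, 83 of 504 and 31 of 282 cells were over 2 times the median UMIs of their cluster. The part of free RNA or doublets in the basal falls was not tested.

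Whether the change differed between the lineages was tested by the interaction of cell type and stage with the mouse as a term. The change in hormone-sensing cells minus that in basal cells was positive for 704 of 12016 genes (5.86%) and negative for 1383 (11.5%), or 17.4% in all. A positive difference can also be a smaller fall, as for Prlr, at -1.49 in hormone-sensing and -5.76 in basal cells. With library size alone the split was 1425 and 726, with TMM factors from abundant genes 958 and 1033, and with DESeq2 553 and 571, so the balance of directions followed the scaling. The largest positive differences under the naming rule were in Hsd11b2, Igf2, Slpi, Peg3, Emb, Tph1, B4galt5, Tnfsf11, Wfdc12 and Antxr1. For Tph1 part of the difference was a basal fall, from 6.11 and 3.20 CPM in C12 to 0.253 and 0 CPM in C13 (-4.94 ± 0.82). The C12 level of Tph1 was 9.18% of that in C4, and the part of free RNA in it was not tested.

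Slpi showed opposite changes. It rose in hormone-sensing cells and fell in basal cells from 1232 and 1801 to 98.1 and 145 CPM, and the difference was 9.69 ± 0.19 on the log2 scale (adjusted p listed at 0). For Emb, which stood at 134 and 124 CPM in C12 and 193 and 218 CPM in C13, the difference was 7.89 ± 0.25, and for Peg3 it was 7.99 ± 0.60. Igf2 differed by 9.77 ± 1.36, with at most 2.75 CPM in basal cells of either stage. The difference of Tnfsf11 was 6.89 ± 1.64, but basal sums held at most 1.37 CPM and it did not pass without the second NP library, at 2.71, without cells over 2 times the median UMIs, at 2.64, or with sums thinned to equal depth. Wfdc12 rose in both lineages, from 0.940 and 0.457 to 24.3 and 46.7 CPM in basal cells, and differed by 6.79 ± 0.99, or by 5.2 without the first NP library, which did not pass.

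Shared directions with unequal size were seen for Socs2, Socs3 and B2m. Socs2 rose in basal cells from 79.2 and 78.7 to 149 and 164 CPM and differed by 1.72 ± 0.20. B2m rose in basal cells from 679 and 575 to 1364 and 1117 CPM and differed by 1.22 ± 0.14. The fall of Socs3 was larger in hormone-sensing cells by -1.51 ± 0.31, a difference of -0.69 that did not pass with thinned sums. Fkbp5 was at 3.29 and 2.74 CPM in C12 and at 2.78 and 3.20 CPM in C13, and its difference was 4.42 ± 0.66. For Csn2 the difference was -0.18 ± 1.31 (adjusted p = 0.955).

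Among the largest negative differences were those of Pfkfb3, Ahnak2, Enho, Nav2, Ptn, Fgg, Ets1, Prss22 and Prkcdbp. Ptn stood at 667 and 622 CPM in C12 and 455 and 453 CPM in C13, and differed by -6.07 ± 0.21. S100a6 fell in both lineages and differed by -2.94 ± 0.16. The transcription factor Ets1 was at 103 and 89.7 CPM in C12 and at 94.2 and 117 CPM in C4, and had 1 UMI in C5 against 102 and 94.7 CPM in C13.

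**Figure D5:**
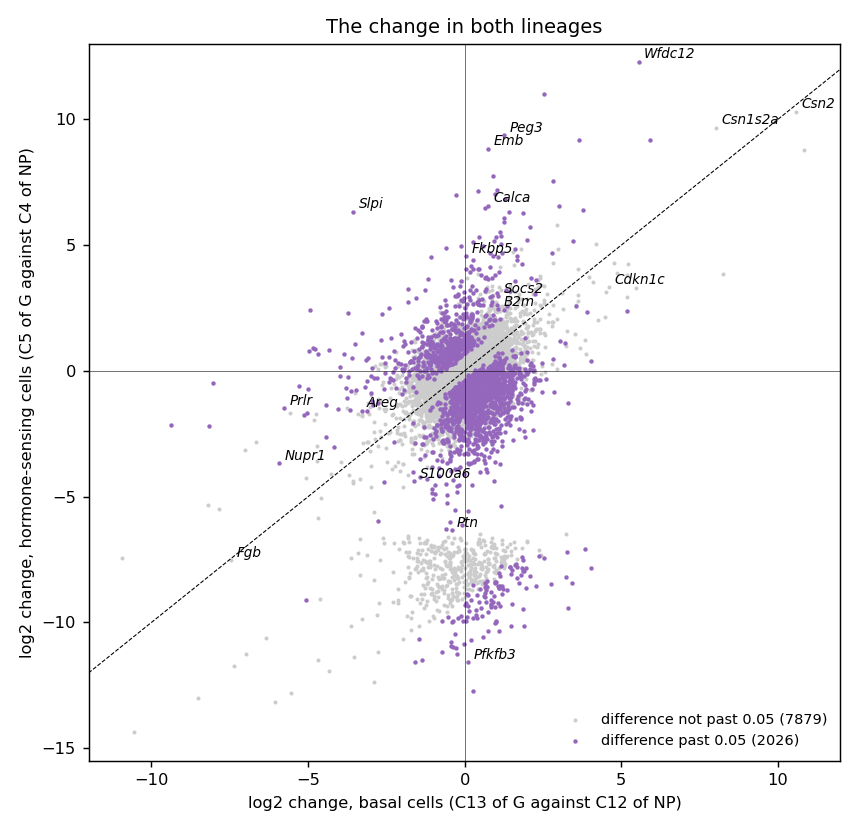
Log2 change from NP to G in basal cells (x axis) against that in hormone-sensing cells (y axis), 1 point for each of the 9905 genes tested in all 3 fits; the dashed line marks equal change, and purple points (2026) differed between lineages at an adjusted p under 0.05. Csn2 lies near the line, Slpi in the upper left, and Wfdc12, Peg3, Emb and Calca high above it; the band at the bottom is genes with no UMI in C5, whose fitted change is no bound.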

How the data were processed

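Droplet-based single-cell RNA sequencing of sorted mouse mammary epithelial cells gave 1 library per mouse. The deposited values are UMI counts per gene and cell that the authors made with STAR on mm10, as the submitters' processing notes list them, and versions are not given in the sources used here. The cell annotation deposited by the authors holds UMI counts, genes detected, the mitochondrial fraction, cluster numbers and the filter result per cell. The authors removed low-quality cells and clusters of doublets, and no doublet caller was run here. A combined matrix of all libraries was not used.

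UMIs of passing cells were summed per cluster and library: C4 of NP, C5 of G, C12 of NP and C13 of G. Genes passed edgeR's filter at a minimum count of 10 and total of 15. Sums were scaled by TMM and tested with edgeR's quasi-likelihood test (edgeR 4.0.16, limma 3.58.1, R 4.3.3) with Benjamini-Hochberg adjustment over all genes tested, at 0.05. The interaction of lineage and stage was fitted over 8 sums with the mouse as a term, and DESeq2 1.42.0 was an alternative. Levels are CPM without TMM, so a log2 change differs slightly from the ratio of levels. Replicates are separate mice. Where a group had no UMI, a bound came from 3 UMIs over the group, and ratios with 1 to 3 UMIs carry an exact interval at 95%. All intervals cover counting error only.

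The test was checked on simulated data made from these means and depths (10829 genes), where 3.13% of calls were false. The simulation gave every gene the same spread between mice, so this share does not cover genes with a larger spread. Shares of cells with a UMI are expectations after thinning each cell to 2000 UMIs. The members, lists, tests and alternatives were chosen with earlier results of these data known. Genes were named where they were among the 10 largest rises or falls past the threshold, without overlap between the groups, with at least 50 CPM in both libraries of the higher group and, for rises, 10 UMIs in each G sum, or where they belong to a listed group. A gene that met the rule is not reported here. The imprinted gene list and TMM factors from genes of at least 50 CPM were added after seeing the data. Python 3.11.15, numpy 2.4.6, scipy 1.17.1, pandas 2.3.3 and matplotlib 3.10.9 were used for sums, intervals and plots. Promoter windows came from RefSeq on GRCm38.p6, and 11 of 16 genes looked up had one.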

Additional observations from a re-analysis of the deposited data

Results flagged for a closer look

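The change from NP to G differed between hormone-sensing and basal cells for 2087 genes by the interaction test (edgeR's quasi-likelihood test, Benjamini-Hochberg adjustment). On the log2 scale, the change in hormone-sensing cells exceeded that in basal cells by 9.69 for Slpi, 7.89 for Emb, 9.77 for Igf2, 7.99 for Peg3, 10.96 for Hsd11b2, 7.24 for Tph1 and 6.89 for Tnfsf11. The same test gave 6.79 for Wfdc12, 5.49 for Calca, 1.72 for Socs2, 4.42 for Fkbp5, 1.22 for B2m, 7.18 for B4galt5 and 6.63 for Antxr1. For Slpi and Tph1 part of the difference was the fall in basal cells given above. Basal sums held few UMIs of Hsd11b2 and Tnfsf11, and without the second NP library their differences were 10.41 and 2.71 and did not pass, nor did either with sums thinned to equal depth.

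Hormone-sensing cells fell relative to basal cells for Ptn (-6.07), Fgg (-5.81), S100a6 (-2.94) and Socs3 (-1.51). The fitted difference was -11.38 for Pfkfb3 and -9.81 for Ahnak2, which had no UMI in C5, so that the fitted size is no bound. Ahnak2 did not pass without the second G library, at -9.96. It was -6.60 for Enho, -6.26 for Nav2, -5.78 for Ets1 and -5.74 for Prss22, each with 1 UMI in C5, and -5.37 for Prkcdbp with 2.

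In the first lactation library, which no comparison used, 2 cells belonged to C5. Wfdc12 stood at 14112.9 CPM in them, against 7.86 CPM in C14, the myoepithelial cells of that library. Prlr stood at 3192 CPM in these 2 cells and Tnfsf11 and Calca had no UMI there. These 2 cells of 1 mouse give no measure of spread.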

How the results depend on the processing

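Of 2048 genes called in hormone-sensing cells, 465 passed glmTreat for a log2 change over 1 at an adjusted p of 0.01, 606 genes passed with sums thinned to equal depth, where only 2028 could be tested, and leaving out 1 library gave 667 (without the second G library) to 1381, with 1257 and 1180 without the first and second NP library. The 5177 basal calls became 3123 with DESeq2, 627 with glmTreat and 3225 (without the first NP library) to 5074 when 1 library was left out. The 2087 calls on the difference became 1124 with DESeq2, 381 with glmTreat, 421 with thinned sums and 1073 (without the second G library) to 1780, with 1171 and 1240 without the first and second NP library. No call in hormone-sensing cells changed sign except 2 with all hormone-sensing clusters summed. Of the genes named here, Csn3 turned to -1.22 in that setting, Top2a ran from -7.42 (without the second G library) to 6.20 when 1 library was left out, and the basal change of Ptn from -0.42 to 0.28 without cells over 2 times the median UMIs. Named genes kept their call, and where called their direction, in 1656 of the 1709 combinations with an alternative in hormone-sensing cells. Signs of genes called in neither fit were not compared. Alternatives that did not test a gene are not counted. Thinned sums left the difference of Calca, Fkbp5, Hsd11b2, Igf2, Prss22, Socs2, Socs3, Tnfsf11, Tph1 and Wfdc12 short of the threshold.

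The replicate number in the labels was carried only as a number: deviations of same-numbered samples correlated at 0.0205 in hormone-sensing cells and -0.0263 in basal cells. With the replicate block 1637 genes passed in hormone-sensing cells, 5332 in basal cells and 1909 for the difference. The share of hormone-sensing cells fell by 63.0 percentage points of all epithelial cells, and with luminal cells as the denominator it fell by 77.6. Depth is a limit: C4 held 71.2 UMIs for each UMI of C5, and genes with no UMI in C5 have only a bound. Both the 41 and the 20 cells of C5 come from 1 mouse each.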

Other observations

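Of the imprinted genes, a list added after values of some of its members were seen, 4 of 12 tested were higher in C5 and 0 lower (edgeR; 0 at an unadjusted p under 0.05), beside 8.04% and 10.6% of all genes. The count is a description, and 3 of the 12 entered the test only with the help of C5. The 4 were Igf2, H19, Peg3 and the growth inhibitor Cdkn1c, which stood at 1.97 and 3.24 CPM in C4, 32.5 and 31.0 CPM in C5 and 165 and 147 CPM in C13. Cdkn1c did not pass without the second G library, at 3.34. Dlk1, Meg3, Mest, Ndn, Peg10 and Sgce had no UMI in C5.

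Hormone-sensing cells after involution (C3 of the 2 libraries made after weaning, 412 and 2487 cells) entered no comparison. The gestation signals were low there, with Tnfsf11 at 0 and 0.0644 CPM, Calca at 0.30 and 47.1 CPM, Igf2 at 1.5 and 1.22 CPM and Pnmt at 0 and 0.0644 CPM. Transcripts that were low in C5 were abundant: S100a6 stood at 8251 and 7218 CPM, Ptn at 3010 and 4643 CPM, Fgb at 784 and 625.5 CPM and Prlr at 2533 and 3079 CPM. Some genes lay between C4 and C5, among them Tmprss6 at 117 and 105 CPM, Socs2 at 253 and 251 CPM, Wfdc12 at 51.9 and 192 CPM and Emb at 58.5 and 35.1 CPM. These genes were chosen after their values were seen.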
